A study of Mus musculus with 4 samples.

Results

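The genes described here encode the proteins of the cytosolic ribosome. They were taken by symbol, as Rpl or Rps followed by a number and at most a short suffix, together with Rpsa, Rplp0, Rplp1 and Rplp2, and without symbols marked as pseudogenes (-ps). The rule took 79 of 38713 genes, 45 of the large subunit and 34 of the small subunit. It used no measured value. A total of 76 members were tested, 45 of the large and 31 of the small subunit. The other 3, Rps3a2, Rps3a3 and Rps4y2, are annotated as pseudogenes and reached at most 0.462 FPKM. FPKM are fragments scaled by transcript length and by the fragments mapped in the library, so that levels can be compared between genes. Rpl13 was not analysed here.

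RNA was sequenced from 4 mouse mammary tumor cell lines of the C57BL/6 strain, with 1 library per line. The 2 JNK_WT lines (p53-/-; replicates 1 and 2) and the 2 JNK_KO lines (p53-/- JNK-/-; replicates 1 and 3) all carried the p53-/- label, from deletion of Trp53 by Cre recombinase under the Wap promoter. This promoter is active in luminal mammary epithelium and is induced by lactation. In JNK_KO lines the same Cre also deleted Mapk8 and Mapk9, which encode the kinases JNK1 and JNK2. Tumor cells were dispersed with collagenase, grown on collagen I and established as lines in culture, with no further treatment. The age of the mice was not given in the labels. The comparison of JNK_KO with JNK_WT asks how p53-/- tumor cells differ when JNK is lost too.

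The ribosome joins a large subunit, which forms peptide bonds, to a small subunit, which reads the mRNA. Each protein is present in about equal number per particle, with the stalk proteins as an exception. Cells keep the output of these genes in step by promoter motifs that many of them have, and by degrading proteins that are not assembled. Nutrient signals through mTORC1 also act on mRNAs with a 5′ terminal oligopyrimidine (TOP) start. Free Rpl5, Rpl11 and Rpl23 can bind Mdm2 and so stabilize p53, a route that ends at the protein targeted in these lines.

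Transcription start sites are shown for members that the results below turn on, because a TOP start is the best known shared feature of these mRNAs. Sequences are RefSeq windows (GRCm38.p6) from 15 bases before the listed start, read 5′ to 3′ on the strand of the gene. Capitals mark a run of C followed by pyrimidines that begins at the start base, or the start base alone where there was no run of at least 5 bases. The first 6 windows have such a run and the last 3 do not.
Rps6 (chr4:86857353-86857382, minus strand): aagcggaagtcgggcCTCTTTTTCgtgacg
Rpl14 (chr9:120571502-120571531, plus strand): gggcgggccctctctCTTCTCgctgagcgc
Rpl15 (chr14:18270972-18271001, minus strand): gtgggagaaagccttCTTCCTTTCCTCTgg
Rpl38 (chr11:114668565-114668594, plus strand): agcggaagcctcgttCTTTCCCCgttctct
Rplp2 (chr7:141447636-141447665, plus strand): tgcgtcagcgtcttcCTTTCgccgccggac
Rps21 (chr2:180257364-180257393, plus strand): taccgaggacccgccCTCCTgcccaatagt
Rpl26 (chr11:68901551-68901580, plus strand): ctcgcggcaacttacAgaaccggaagtcgc
Rplp0 (chr5:115559452-115559481, plus strand): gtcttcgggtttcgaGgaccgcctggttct
Rps7 (chr12:28635939-28635968, minus strand): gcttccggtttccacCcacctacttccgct

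RefSeq listed 66 starts for 56 of the 79 members. A C followed by at least 4 pyrimidines stood at 13 of these 66 starts (19.7%), compared with 823 of 32851 starts (2.51%) over all genes. Listed starts need not be the main start used in a cell. For Rps9 and Rpl27a, pyrimidine stretches surround a start listed as T, and the annotated genes of Rps6 and Rpl38 begin outside the windows shown above. A listed start without a run therefore does not show that the mRNA lacks a TOP start. The ETS core CGGAAG was found on either strand in the 300 bases around 63.6% of member starts and 16.9% of all starts. The GC box GGGCGG was found at 60.6% and 35.7%, the YY1 core AAGATGGC at 10.6% and 2.75%, and the TATA box TATAAA at 9.09% and 13.6%. The ETS and YY1 letters can share the bases AAG. The 13 members with a run at a listed start had a median log2 difference (JNK_KO minus JNK_WT) of 0.09, with a range from -0.26 to 0.50. The 43 other members with listed starts had a median of -0.011, with a range from -0.67 to 0.27. These classes follow the listed starts and may not separate mRNAs with and without a TOP start.

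The libraries carried luminal epithelial transcripts. Krt8 was at 278 to 1045 FPKM and Epcam at 150 to 630 FPKM. The summed level of the 5 luminal markers was 3059 and 2072 FPKM in JNK_WT and 895 and 1744 FPKM in JNK_KO libraries. The 3 basal markers summed to 7.44 and 527 FPKM in JNK_WT and to 28.0 and 320 FPKM in JNK_KO libraries. The 6 fibroblast and mesenchymal markers summed to 343 and 48.7 FPKM in JNK_WT and to 606 and 333 FPKM in JNK_KO libraries, with Vim at 331 and 47.2 compared with 500 and 159 FPKM. Col1a1 was below 1 FPKM in every library and Col3a1 at most at 1.33 FPKM, and Col1a2 was highest in JNK_WT replicate 1 at 10.3 FPKM. Pdgfra was at 0.325 and 0.183 FPKM in JNK_WT and at 24.7 and 7.82 FPKM in JNK_KO libraries, and Dcn was at 0.430 and 0.389 FPKM in JNK_WT and at 79.7 and 162 FPKM in JNK_KO libraries. The 3 endothelial, 3 adipocyte and 4 erythroid markers were below 1 FPKM in every library, as were 4 of 5 leukocyte markers. Mapk8 was at 23.9 and 19.1 FPKM in JNK_WT and at 4.30 and 4.27 FPKM in JNK_KO libraries, and Mapk9 was at 29.7 and 24.3 compared with 12.6 and 8.66 FPKM. Transcripts of Mapk8 and Mapk9 were therefore lower in the JNK_KO libraries but not at 0. The level of Trp53, a target in all 4 lines, was 1.55 and 4.15 FPKM for JNK_WT and 5.72 and 4.28 FPKM for JNK_KO, and these values cannot tell an intact transcript from one that lacks the deleted exons. In such bulk RNA, fewer cells of a type and less RNA per cell cannot be told apart.

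Ribosomal protein transcripts were among the most abundant in all 4 lines. The median member had a mean of 516 FPKM, 511 in the large and 551 in the small subunit. Of the 76 members, 35 ranked in the top 1% and 75 in the top 5% of the 12998 genes tested. The level was not equal across members, although their proteins are needed in about equal number. A total of 67 members lay between 200 and 1200 FPKM on average.

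Rpl13a, a large subunit protein, had the highest level at 3814 and 2620 FPKM in JNK_WT and 2567 and 2937 FPKM in JNK_KO libraries. It was followed by Rpl32 with a mean of 1374 FPKM, the stalk gene Rplp1 with 1328 FPKM, Rps15a with 1235 FPKM and Rps21 with 1201 FPKM. These 4 means lay closer to each other than the libraries of Rplp1 did, which ran from 899 to 1549 FPKM. At the other end of the tested members stood Rpl24, which was at 5.28 and 4.26 FPKM in JNK_WT and 4.93 and 6.85 FPKM in JNK_KO libraries. All other tested members were at over 100 FPKM in every library. Rpl24 is an intact gene of the large subunit, and a transcript of the same sequence is annotated at an overlapping locus, so its low value is uncertain. The next lowest were Rpl15 with a mean of 158 FPKM, Rpl31 with 162 FPKM, Rpl29 with 178 FPKM and Rpl10a with 225 FPKM.

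**Figure D1:**
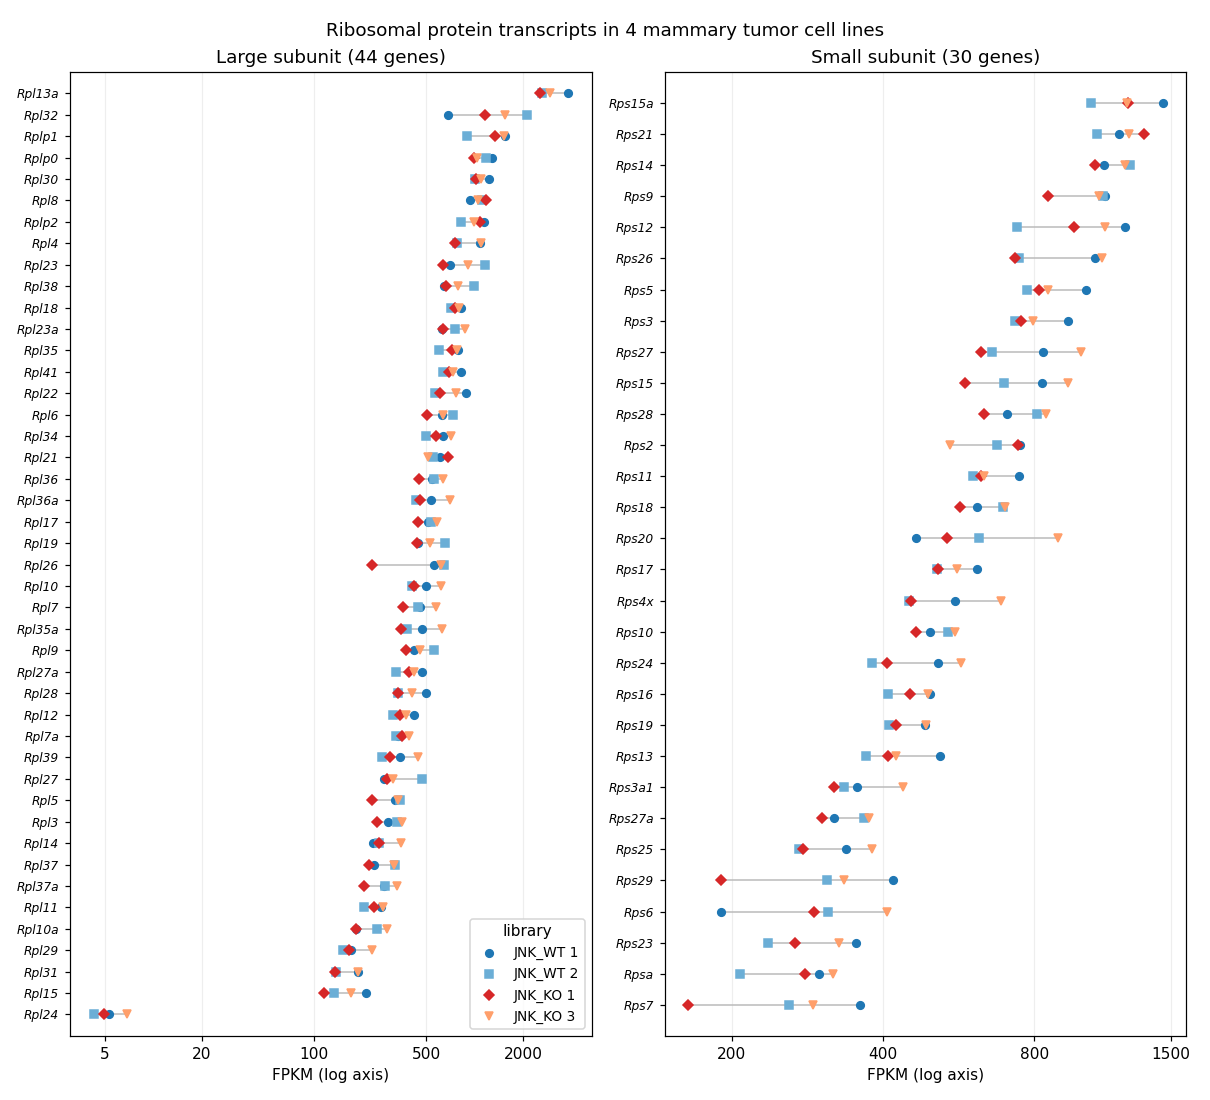
FPKM of 74 tested members in each library on a log axis, with large subunit genes on the left and small subunit genes on the right (the x axes differ), ordered by mean level; each point is 1 library and the grey line joins the lowest to the highest. Rpl13a stands highest, Rpl24 lies apart near 5 FPKM, and most genes span less than 1.5-fold over the 4 lines, with wide lines for Rpl32, Rpl26, Rps29, Rps7 and Rps6.

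Members with known roles beyond the core of the particle ranged widely in level. The stalk that recruits translation factors is built of Rplp0, Rplp1 and Rplp2, whose summed level was 3988 and 2895 FPKM in JNK_WT and 3401 and 3555 FPKM in JNK_KO libraries. Rps6, the small subunit protein phosphorylated by S6 kinase, had a mean of 300 FPKM. Rpsa, which is also known as a laminin receptor, was at 298 and 208 FPKM in JNK_WT and 279 and 318 FPKM in JNK_KO libraries. Rps27a, which is made as a fusion with ubiquitin, was at 302 to 375 FPKM. Rpl41, the smallest ribosomal protein, was at 639 to 821 FPKM. Rpl22 was at 878 and 566 FPKM in JNK_WT and 609 and 761 FPKM in JNK_KO libraries. Rps19, mutated in Diamond-Blackfan anemia, varied little, from 411 to 488 FPKM.

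Ribosomal proteins and paralogs that the naming rule leaves out differed widely in level. Fau (Rps30) was at 376 to 500 FPKM and Gnb2l1 (Rack1) at 1497 to 2087 FPKM. Among paralogs of members, Rps27l was at 173 to 218 FPKM, Rpl36al at 86.5 to 149 FPKM, Rpl22l1 at 38.8 to 91.5 FPKM and Rpl7l1 at 37.6 to 58.4 FPKM. The tissue-restricted paralogs Rpl10l and Rpl39l were listed at 0 in every library and Rpl3l was at most at 0.069 FPKM. The 221 pseudogene rows marked -ps summed to 81.8 to 95.3 FPKM per library.

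Members as a whole did not separate the 2 genotypes. Their summed level was 49197 and 44954 FPKM in JNK_WT and 42025 and 51010 FPKM in JNK_KO libraries, so the JNK_KO libraries held both the lowest and the highest sum. The log2 ratio of the group means was -0.017 (exact permutation test, two-sided p = 1.0). With 2 libraries per group an exact permutation test cannot go below p = 0.333. The ratio of the small to the large subunit sum was 0.736 and 0.668 in JNK_WT and 0.729 and 0.722 in JNK_KO libraries, and the groups overlapped.

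Members made up 6.34% and 5.34% of all FPKM in JNK_WT and 4.56% and 6.34% in JNK_KO libraries. Genes with at least 200 bases of exon, a class that leaves out most small structural RNAs, held 70.9% and 64.7% of all FPKM in JNK_WT and 56.5% and 66.9% in JNK_KO libraries, in the same order of libraries as the share of members. As a share of that class, members made up 8.94% and 8.25% in JNK_WT and 8.07% and 9.48% in JNK_KO libraries. On each of these scales JNK_KO replicate 1 was the lowest library, and JNK_WT replicate 1 and JNK_KO replicate 3 were the highest pair.

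No member was called as different between JNK_KO and JNK_WT by limma at an adjusted p-value under 0.05 with an absolute log2 difference over 0.75. The background was 0% of the 12998 genes tested. At an unadjusted p-value under 0.05 there were 0 members, beside 992 genes (7.63%) of all tested, and the smallest adjusted p-value of a member was 0.922. Members moved together by library, as given below, so this is not a count of separate observations. The median log2 difference of members was -0.00090, compared with 0.013 over all tested genes, with 38 members higher and 38 lower in JNK_KO cells. It was -0.0078 in the large and 0.0060 in the small subunit, and over all members it was -0.09 after scaling to the sum of FPKM and 0.06 after quantile normalization, so no direction can be given. Differences ran from -0.67 to 0.50, and 0 members exceeded 0.75 in size, compared with 15.7% of all tested genes. The median SE of a member was 0.29.

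**Figure D2:**
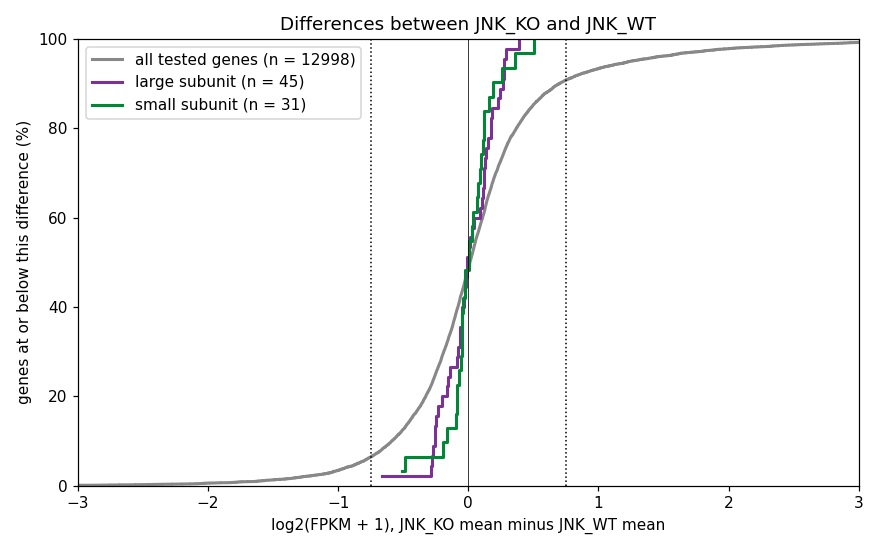
Cumulative share of genes (y axis, %) by the log2 difference of JNK_KO and JNK_WT means (x axis, log2(FPKM + 1), 2 libraries per group), for all 12998 tested genes, 45 large subunit and 31 small subunit genes; dotted lines mark 0.75 in either direction and the x axis is limited to 3. Both subunits rise steeply around 0 and lie between the dotted lines, from -0.67 to 0.50.

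Few members had groups that did not overlap. This was so for 5 of 76 members (6.58%), compared with 35% of all tested genes. Members moved together by library, with a median deviation from their own mean of 0.10 and -0.11 in JNK_WT and -0.17 and 0.16 in JNK_KO. These are therefore not 76 separate observations, and how far the shared shift sets this count was not tested. Rps21, Rpl7a and Rpl14 were higher in both JNK_KO libraries (18.3% of all tested genes), and Rplp0 and Rps9 were lower in both (16.7%). Rpl7a and Rps9 are named because of this count and were picked after their values were seen.

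Rplp0 was at 1291 and 1174 FPKM in JNK_WT and at 989 and 1032 FPKM in JNK_KO libraries. Its log2 difference was -0.29 (SE 0.26, limma adjusted p = 0.961). Rps21 was at 1179 and 1065 FPKM in JNK_WT and at 1323 and 1237 FPKM in JNK_KO libraries, a difference of 0.19 (SE 0.26). Rpl14 was at 234 and 253 FPKM in JNK_WT and at 254 and 350 FPKM in JNK_KO libraries. Its groups were separated by less than 1 FPKM, and JNK_KO replicate 3 alone stood above the rest.

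The 5 members with the lowest differences were Rpl26, Rps29, Rps7, Rplp0 and Rpl27. The groups overlapped for each of them but Rplp0. Rpl26, a large subunit protein that also binds p53 mRNA, was at 555 and 642 FPKM in JNK_WT and at 228 and 618 FPKM in JNK_KO libraries. Only JNK_KO replicate 1 was low, and the log2 difference was -0.67 (SE 0.53, limma adjusted p = 0.938). Without that library it was 0.05. Rps29 was at 419 and 309 FPKM in JNK_WT and at 190 and 335 FPKM in JNK_KO libraries, a difference of -0.51 (SE 0.38). Rps7 was at 360 and 260 FPKM in JNK_WT and at 164 and 290 FPKM in JNK_KO libraries, a difference of -0.49 (SE 0.38). For Rps29 and Rps7 too, JNK_KO replicate 1 was the low library. Rpl27 was at 273 and 474 FPKM in JNK_WT and at 284 and 309 FPKM in JNK_KO libraries, so that JNK_WT replicate 2 was the high library.

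Among the members with the highest differences were Rps6, Rps20, Rpl14 and Rpl29. Rps6 was at 190 and 311 FPKM in JNK_WT and at 291 and 407 FPKM in JNK_KO libraries. The groups overlapped, and the log2 difference was 0.50 (SE 0.36, limma adjusted p = 0.922). Rps20 was at 466 and 621 FPKM in JNK_WT and at 535 and 893 FPKM in JNK_KO libraries, a difference of 0.36 (SE 0.36). Without JNK_KO replicate 3 the difference of Rps20 was -0.0070. Rpl29 was at 169 and 151 FPKM in JNK_WT and at 164 and 228 FPKM in JNK_KO libraries.

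Of the proteins that bind Mdm2, Rpl5 was at 318 and 342 FPKM in JNK_WT and at 231 and 334 FPKM in JNK_KO libraries. Rpl11 was at 261 and 206 FPKM in JNK_WT and at 237 and 270 FPKM in JNK_KO libraries. Rpl23 was at 702 and 1158 FPKM in JNK_WT and at 631 and 908 FPKM in JNK_KO libraries. The groups overlapped for all 3, with log2 differences of -0.25, 0.13 and -0.25.

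Members varied between lines of the same genotype. The median member differed by 0.33 on the log2 scale between the 2 JNK_WT libraries and by 0.36 between the 2 JNK_KO libraries. Over all tested genes these medians were 0.43 and 0.33, and over other genes with a mean of at least 100 FPKM 0.43 and 0.32. Members thus differed less than these genes within JNK_WT but slightly more within JNK_KO. JNK_KO replicate 3 was the highest library for 35 members and JNK_WT replicate 1 for 27, whereas JNK_WT replicate 2 was the lowest for 35 and JNK_KO replicate 1 for 31. Over all tested genes each library was the highest for 21.7% to 26.9%. The median deviation of members from their own mean was 0.10 and -0.11 in JNK_WT and -0.17 and 0.16 in JNK_KO libraries. A total of 48 of 76 members had a highest library less than 1.5-fold above the lowest. The median range over the 4 libraries was 0.54 for members, 0.75 for the 919 other genes with a mean of at least 100 FPKM, and 0.78 for all tested genes. When the median member of each library was taken off, the median range of members was 0.38 instead of 0.54, so the shared part was not small.

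The widest range was that of Rpl32, which was at 681 and 2119 FPKM in JNK_WT and at 1159 and 1537 FPKM in JNK_KO libraries. The 2 lines of 1 genotype thus differed 3.11-fold, with both JNK_KO lines between them, and the log2 difference between groups was 0.15 (SE 0.62). The next ranges were those of Rpl26, Rps29, Rps7 and Rps6, and these 5 members had a range over 1 on the log2 scale.

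To describe what set a member apart in a line, its log2 deviation from its own mean was taken relative to the median member of that library, and was set beside the median deviation of all other tested genes that start within 5 Mb. Windows held 12 to 187 such genes, with a median of 67, and members were not counted among them. The values of members and of their neighbours went together, with a Pearson r of 0.77 over 76 members in 4 libraries (304 points). Within a library r was 0.80 and 0.85 in JNK_WT and 0.59 and 0.72 in JNK_KO. This is a description across genes, in which members share libraries and near members share neighbours. The same measure was 0.25 over 12731 tested genes with a position and 0.29 over 894 other genes with a mean of at least 100 FPKM. It was 0.75 over the 75 mitochondrial ribosomal protein genes described below, so a high value was not particular to members. The choice of neighbours was made after the data were seen.

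Most of the larger deviations of a member were shared in sign by its neighbours. A member lay more than 0.3 from the median member in 35 cases, which came from 24 members, and in 34 of these cases the neighbours deviated to the same side. No background over other genes is given for this count, and some of the cases share neighbours. When the deviation of the neighbours was taken off, the median range of members went from 0.38 to 0.27, and the range became smaller for 59 members and larger for 17. Over all tested genes the range became smaller for 61.6%, and over other genes of at least 100 FPKM for 69.0%, beside 77.6% of members.

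**Figure D3:**
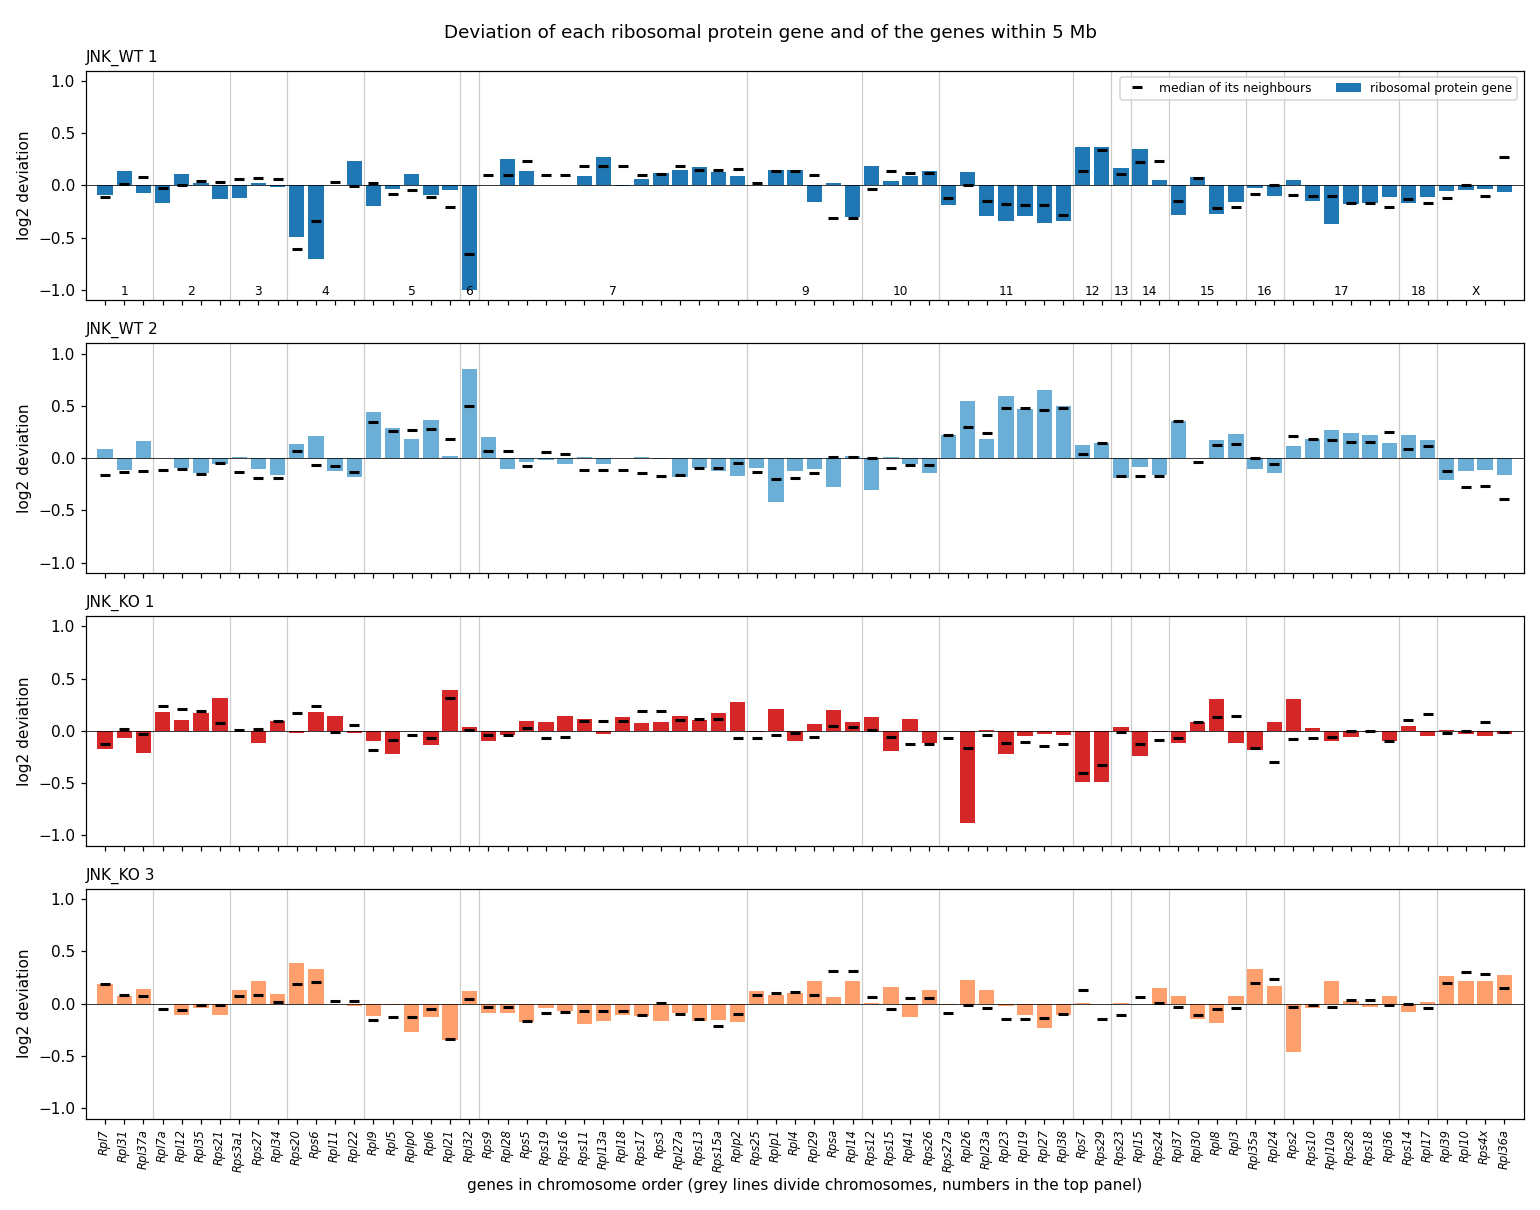
Log2 deviation of each of 74 tested members from its own mean, relative to the median member (bars), in the 4 libraries (1 panel each), with genes in chromosome order and the median deviation of other tested genes within 5 Mb as black marks. Runs of neighbouring bars share their sign with the marks, as for chromosome 11 in JNK_WT replicate 2 and chromosome 12 in JNK_KO replicate 1, while Rpl26 in JNK_KO replicate 1 and Rps2 in JNK_KO replicate 3 go far beyond theirs.

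Chromosome 11 carries 7 members, Rpl19, Rpl23, Rpl23a, Rpl26, Rpl27, Rpl38 and Rps27a. In JNK_WT replicate 2 all 7 lay above the median member, by 0.18 to 0.65, and their neighbours by 0.22 to 0.48. Rpl38 (chr11:114668524-114672331) deviated by -0.34 and 0.50 in JNK_WT and by -0.04 and -0.11 in JNK_KO libraries, and its 106 neighbours by -0.29 and 0.48 and by -0.13 and -0.10. Rpl23 (chr11:97777527-97782437) deviated by 0.60 and Rpl27 (chr11:101442298-101445529) by 0.65 in JNK_WT replicate 2, where their neighbours stood at 0.48 and 0.46. The windows of Rpl19, Rpl23 and Rpl27 overlap, and these are not separate observations.

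Rps7 (chr12:28630854-28635953) and Rps29 (chr12:69157722-69159186), the 2 members on chromosome 12, were both at -0.49 in JNK_KO replicate 1, beside -0.41 and -0.32 for their neighbours. Both were at 0.37 in JNK_WT replicate 1, where neighbours stood at 0.14 and 0.34. Their low differences between groups, given above, were thus shared by the genes around them, which differed by -0.23 and -0.47.

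On chromosome 4, Rps6 (chr4:86854660-86857412) was at -0.71 in JNK_WT replicate 1 and Rps20 (chr4:3831334-3835665) at -0.49, beside -0.34 and -0.61 for 30 and 12 neighbours. The neighbours of Rps6 differed by 0.42 between JNK_KO and JNK_WT and those of Rps20 by 0.45, in the same direction as both genes. Rpl11 and Rpl22, which lie further along this chromosome, did not share the low value, at 0.0034 and 0.24 in JNK_WT replicate 1.

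Rpl32 (chr6:115805505-115808747) deviated by -0.996 and 0.86 in JNK_WT and by 0.04 and 0.12 in JNK_KO libraries, and its 77 neighbours by -0.66 and 0.50 and by 0.01 and 0.05. The remainder of chromosome 6 did not go with it. The 627 other tested genes of that chromosome had median deviations of 0.36 and 0.27 in JNK_WT and -0.33 and -0.23 in JNK_KO libraries, so that in JNK_WT replicate 1 the genes around Rpl32 and the chromosome as a whole lay on opposite sides. The median difference of the chromosome was -0.59, and that of Rpl32 0.15.

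**Figure D4:**
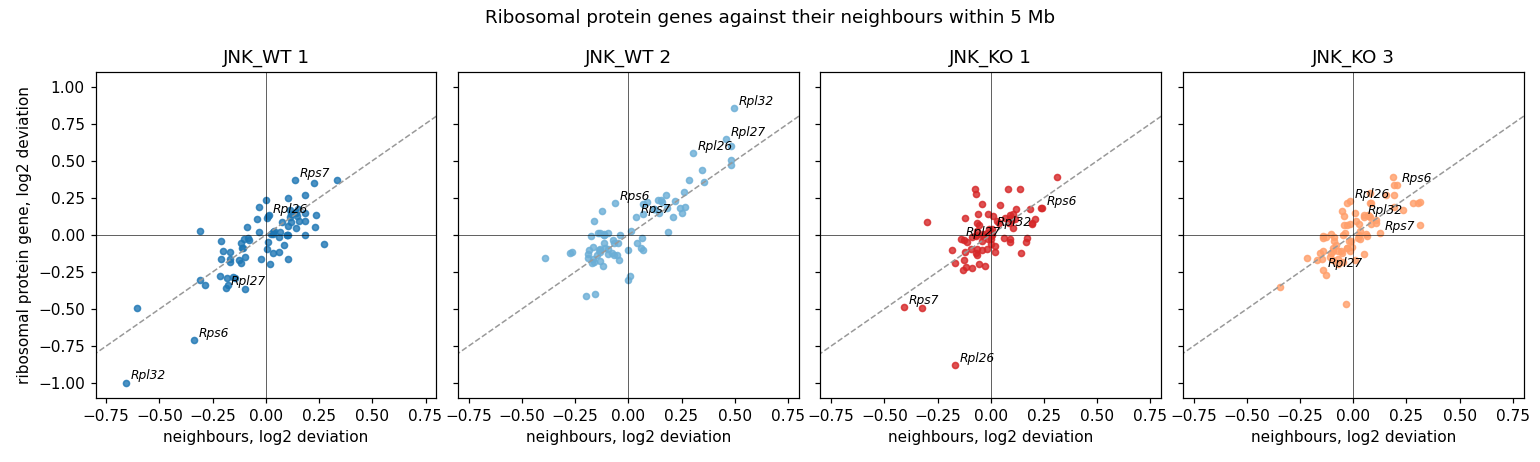
Log2 deviation of the 76 members (y axis) against the median deviation of other tested genes within 5 Mb (x axis), with 1 panel per library, 1 point per member and a dashed line where both are equal. Points follow the dashed line in each library, with r from 0.59 in JNK_KO replicate 1 to 0.85 in JNK_WT replicate 2, and Rpl26 lies far below it in JNK_KO replicate 1.

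Some members departed from their neighbours. Rpl26 (chr11:68901583-68906989) was at -0.88 in JNK_KO replicate 1, where its 131 neighbours stood at -0.17. Rps2 was at 0.31 in JNK_KO replicate 1 and -0.46 in JNK_KO replicate 3, beside -0.08 and -0.03 for its neighbours. Rpsa was at -0.28 in JNK_WT replicate 2, beside 0.01, and its neighbours were at -0.31 in JNK_WT replicate 1, where Rpsa was at 0.03. Rpl14 lies on the same chromosome less than 1 Mb from Rpsa, and followed these neighbours closely, at -0.31, 0.03, 0.08 and 0.22 beside -0.31, 0.01, 0.04 and 0.31. Rps2, and the members of chromosomes 11 and 4 other than those named by rule, were chosen after their values were seen.

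The genes that make and regulate ribosomes also gave no call by limma. Of 39 tested ribosome biogenesis genes, 0 were called, 1 had an unadjusted p-value under 0.05, and groups did not overlap for 7 (17.9%, 3 higher and 4 lower in JNK_KO), beside 7.63% and 35% of all tested genes. The largest differences were those of Emg1 (-0.82), Nop2 (-0.74) and Nhp2 (-0.64), which act in rRNA modification. Of 19 RNA polymerase I genes, 0 were called, 1 had an unadjusted p-value under 0.05 and 7 did not overlap (36.8%, near the 35% of all tested genes). Polr1a, the largest subunit of the enzyme that transcribes rRNA, was at 39.2 and 28.8 FPKM in JNK_WT and at 18.5 and 14.9 FPKM in JNK_KO libraries, with a difference of -0.97 (SE 0.29, limma adjusted p = 0.519). Polr1e differed by 0.68 and Polr1c by -0.34. Emg1, Nop2 and Polr1a lie on chromosome 6, where the median gene differed by -0.59.

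Of 18 genes of mTORC1 and S6 kinase signaling, 0 were called, 0 had an unadjusted p-value under 0.05, and 6 did not overlap (33.3%, near the 35% of all tested genes), 3 in each direction. The largest differences were those of Deptor (0.51), Larp1 (-0.50), which binds TOP mRNAs, and Tsc1 (0.42). Deptor was at 2.13 and 1.95 FPKM in JNK_WT and at 7.05 and 1.33 FPKM in JNK_KO libraries, so only JNK_KO replicate 1 was high and the other JNK_KO library was the lowest of the 4. Of 16 other genes with TOP mRNAs, 0 were called, 0 had an unadjusted p-value under 0.05, and 5 did not overlap (31.2%, beside 35% of all tested genes), 0 higher and 5 lower in JNK_KO (beside 18.3% and 16.7%), with a median difference of -0.13. Hnrnpa1 was at 320 and 326 FPKM in JNK_WT and at 222 and 251 FPKM in JNK_KO libraries, and Eif3f differed by -0.40 and Eif3e by -0.31. Among 7 tested ribosomal proteins outside the naming rule, Rpl36al did not overlap and was lower in JNK_KO (-0.43), and Rpl22l1 differed by 0.40 with overlapping groups.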

How the data were processed

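The deposited table held FPKM for 4 libraries. Per the labels and the study's methods, the authors trimmed single-end reads, sampled them with seqtk, aligned them to GRCm38 (mm10) with TopHat2 2.0.14 and Bowtie2, and estimated FPKM with Cufflinks 2.2.1. The annotation and strandedness are not given in the sources used here. Cufflinks assigns shared reads in part and depth was not given with the FPKM, so counting error could not be set beside a value. Reads of ribosomal protein genes can be shared with their many pseudogenes, and antisense or overlapping genes could not be told apart.

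Of 38741 rows, 27 with symbols turned into dates and 1 without values were left out. Genes with at least 1 FPKM in at least 2 libraries (12998) were tested on log2(FPKM + 1), on which changes of low genes are understated, with limma 3.58.1 (eBayes with trend, R 4.3.3, two-sided), adjusted by Benjamini-Hochberg over all of them. The procedure was tested on simulated data with independent noise per gene. The simulated shifts were larger than any difference of a member, so that test does not cover differences of the size seen in members. Groups and numbers came from the titles. Each library is 1 line, so p-values measure the spread between lines. Positions are from GENCODE M21 (98.1% of tested genes). Alternatives were other pseudocounts, filters, scalings and leaving out each library. Named were the 5 highest, 5 lowest, 5 most positive, 5 most negative and 5 widest-ranging members, 12 members by role, and the 3 largest differences per list; some of these are not reported here. The members and lists were chosen with earlier results of these data known.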

Additional observations from a re-analysis of the deposited data

How the results depend on the processing

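With all 4 libraries, limma called 0 members under every alternative run. In the main fit it called 0 of all 12998 tested genes, so this count is not particular to members. No paired analysis was run, because JNK_WT and JNK_KO lines came from mice of different genotypes and replicate numbers do not pair them. The number of members whose groups did not overlap, 5, was 2 after scaling to the sum of FPKM (34.1% of all tested genes) and 8 after quantile normalization (36.3%); with 1 library left out it ran from 36 to 49 of 76, where 61% to 72.1% of all tested genes did not overlap. The median difference of all members ran from -0.13 to 0.14 and that of large subunit members from -0.21 (without JNK_KO replicate 3) to 0.17 across fits without 1 library, and the fit with 1 library in a group assumes that it varies like the others. The correlation with neighbours, 0.77, was 0.57 with whole chromosomes and 0.72 to 0.79 with other windows and neighbours or without chromosome 11 or Rpl32 (chosen after seeing the data); without 1 library it ran from 0.70 to 0.83.

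Several small differences changed sign. Rps15a was -0.086 after scaling to the sum of FPKM and -0.011 to the upper quartile, and Rps19 -0.065 on the former. After quantile normalization Rpl31, Rpl41 and Rps27a were 0.034, 0.022 and 0.011, and after scaling to genes with at least 200 bases of exon 0.037, 0.024 and 0.023. In fits without 1 library, 19 of 28 named members changed sign: Rpl10a (-0.21 to 0.43), Rpl11 (-0.043 to 0.30), Rpl13a (-0.47 to 0.068), Rpl15 (-0.58 to 0.068), Rpl22 (-0.37 to 0.26), Rpl23 (-0.61 to 0.11), Rpl26 (-1.38 to 0.050), Rpl27 (-0.67 to 0.12), Rpl31 (-0.25 to 0.22), Rpl32 (-0.67 to 0.97), Rpl41 (-0.20 to 0.16), Rpl5 (-0.51 to 0.016), Rplp1 (-0.12 to 0.67), Rplp2 (-0.15 to 0.33), Rps15a (-0.23 to 0.24), Rps19 (-0.092 to 0.15), Rps20 (-0.0070 to 0.73), Rps27a (-0.18 to 0.13) and Rpsa (-0.0025 to 0.52). The cause was not tested.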

Other observations

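The 75 mitochondrial ribosomal protein genes, which are encoded in the nucleus and build the ribosome of the mitochondrion, gave no limma call either. Their median log2 difference was -0.06, and 5 of 75 had an unadjusted limma p-value under 0.05, beside 7.63% of all tested genes. Groups did not overlap for 23 (30.7%), 8 higher and 15 lower in JNK_KO, close to the 35% of all tested genes. Mrps35 was at 119 and 62.4 FPKM in JNK_WT and at 37.7 and 38.2 FPKM in JNK_KO libraries, a difference of -1.17 (SE 0.37, limma adjusted p = 0.553). Mrpl51 was at 119 and 94.5 FPKM in JNK_WT and at 58.8 and 54.3 FPKM in JNK_KO libraries, a difference of -0.90, and Mrpl55 differed by -0.89. Mrps35 and Mrpl51 lie on chromosome 6, where the median gene differed by -0.59, and Mrpl55 on chromosome 11. Mrpl19 and Mrps33, also with an unadjusted limma p-value under 0.05, lie on chromosome 6 too.

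Set beside the genes within 5 Mb, these 75 genes gave a Pearson r of 0.75 over 300 points, from 0.74 to 0.76 within libraries. The median range went from 0.55 to 0.35 when neighbours were taken off, and became smaller for 60 of 75 genes. Mrpl51 deviated by 0.61 and 0.19 in JNK_WT and by -0.43 and -0.41 in JNK_KO libraries, and its neighbours by 0.52 and 0.14 and by -0.44 and -0.30. This is a description across genes that share libraries and, in part, neighbours.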
